A study of Mus musculus with 6 samples.

Results

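Kinetochore, spindle and condensin genes form a set of 43 genes that were chosen by name, for the part their proteins play in chromosome segregation, from the 21240 genes counted in the study. The choice was made with earlier results of these data known, so it was not blind to how these genes moved. The set held the 4 subunits of the chromosomal passenger complex, 8 spindle assembly checkpoint genes, 3 genes of anaphase onset, 9 inner kinetochore and 9 outer kinetochore genes, 5 mitotic kinase and spindle genes and 5 condensin genes. All of them were followed by RNA-seq in NMuMG cells, an established epithelial line from the mouse mammary gland.

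The cells were kept without serum and insulin for 6 h and then received vehicle for 2 h, TGFβ1 at 5 ng/ml for 2 h, or TGFβ1 at the same dose for 12 h, with 2 libraries in each of the 3 groups. The same removal of serum and insulin thus preceded every group, and no group carried a genetic change. Vehicle-treated cells were taken at 2 h only. Cells of the vehicle and 2 h TGFβ groups had therefore been without both for 8 h in all, and those of the 12 h TGFβ group for 18 h. Differences between 12 h TGFβ and vehicle hold both the treatment and the longer time without serum and insulin, which cannot be told apart here. The labels call the libraries of a group biological replicates 1 and 2, and the study describes them as independent.

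Chromosome segregation depends on the kinetochore, a protein assembly that is built on centromeric chromatin and holds on to spindle microtubules. The spindle assembly checkpoint delays anaphase while any kinetochore lacks its attachment, and the condensin complex compacts the chromosomes before they are pulled apart. Many of these genes are transcribed mainly in G2 and mitosis, so their RNA is low in cells that have left the cell cycle, and epithelial cells such as NMuMG are known to slow their proliferation in response to TGFβ. In a bulk library, fewer dividing cells and less of an RNA in each dividing cell cannot be told apart.

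The 6 libraries held between about 14705900 and 23787000 counts each. Levels are given in CPM, the count of a gene scaled to a common library size after TMM normalization. The summed CPM of 5 epithelial markers lay between 4964 and 5784 in vehicle, 6444 and 6479 at 2 h, and 10327 and 10375 at 12 h. Epcam, one of the 5, was at only 0.128 to 0.697 CPM, whereas Cdh1, Krt8, Krt18 and Krt19 carried the sum. From vehicle to 12 h, Krt18 went from 2383 and 1918 CPM to 6132 and 6249 CPM and Krt8 from 1133 and 1016 CPM to 3367 and 3298 CPM, while Krt19 went from 1847 and 1666 CPM to 420.4 and 489.8 CPM. Summed leukocyte markers reached at most 7.14 CPM, with the T-cell gene Cd3e at 0 in every library, and summed endothelial markers were 0.118 and 0.191 CPM in vehicle, 0.304 and 0.404 CPM at 2 h and 1.74 and 1.95 CPM at 12 h, with Cdh5 at 1 and 2 counts in vehicle and 39 and 36 at 12 h while Pecam1, Kdr and Tie1 had at most 2 counts in any library. Summed fibroblast markers were 3.57 and 5.24 CPM in vehicle, 8.98 and 9.67 CPM at 2 h and 13.5 and 15.6 CPM at 12 h. Of these 6 markers Col1a1 carried the difference, with 0.648 and 1.27 CPM in vehicle and 10.98 and 10.84 CPM at 12 h, while Pdgfra was at 2.77 and 2.17 CPM and at 2.79 and 2.47 CPM. The part of these epithelial, endothelial and fibroblast markers in the results below was not tested.

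The RNA of nearly all members was lower after 12 h of TGFβ. The 43 genes together took 0.155% and 0.296% of all counts in the vehicle libraries, 0.149% and 0.265% at 2 h, and 0.0357% and 0.0349% at 12 h. Both 12 h libraries lay far below the other 4, and the vehicle and 2 h shares overlapped. Of the 43 genes, 34 were above 10 CPM in both vehicle libraries and 9 in both 12 h libraries, where 14 had less than 1 CPM. The test took the 11080 genes that reached 2 CPM in 2 or more of the libraries, and all 43 members passed this filter. For 24 members it was passed only through the vehicle and 2 h libraries, since both 12 h libraries were under 2 CPM.

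With edgeR's quasi-likelihood test and p-values adjusted by Benjamini and Hochberg's method, 40 of the 43 members fell and 1, Cenpt, rose at an adjusted p under 0.05 between vehicle and 12 h TGFβ, beside 21.5% of all tested genes called lower and 21.8% called higher. All 40 also passed a log2 fold change (log2FC) of -1, which 11.6% of tested genes did in that direction. Bub3 and Zw10 were not called. The 40 hold the 24 members that passed the filter only through the vehicle and 2 h libraries. Such genes could enter the test only by being higher there. Where at least 10 counts were asked in every library, 36 members remained, of which 33 fell and 1 rose. The median log2FC was -4.17 over the 43 members and 0.02 over the tested genes, and the standard errors (SE) of the members ran from 0.139 to 0.891. The fall was at least 4-fold in 38 members, at least 16-fold in 23 and at least 32-fold in 16. Without vehicle replicate 2 these counts were 36, 18 and 9, and leaving out 1 library moved the fold of 22 of the 40 members by over 1.5 times. Both 12 h libraries lay below both vehicle libraries in 41 members and above them in 1, where 37.2% of the tested genes lay wholly below and 39.5% wholly above.

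**Figure D1:**
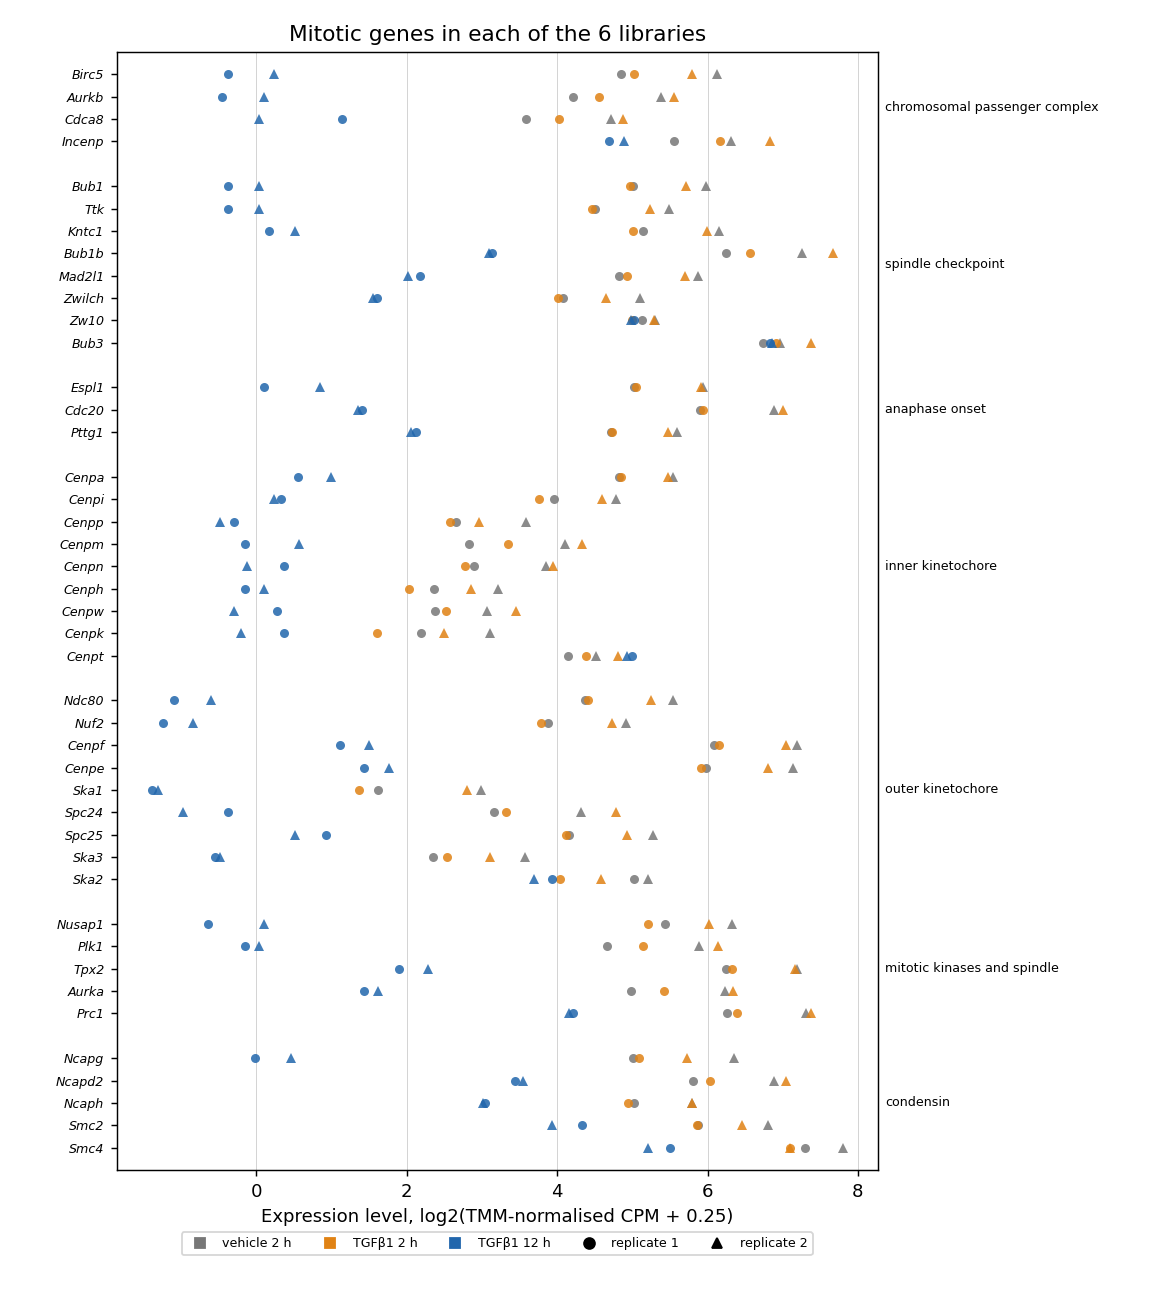
Level of each of the 43 genes in each of the 6 libraries, as log2 of CPM plus 0.25, with genes grouped by role, colours for the groups and circles and triangles for replicates 1 and 2. In the 40 genes that fell, both 12 h points lie left of the other 4, while those of Bub3 and Zw10 lie close to the vehicle points and those of Cenpt to the right of the other 4.

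**Figure D2:**
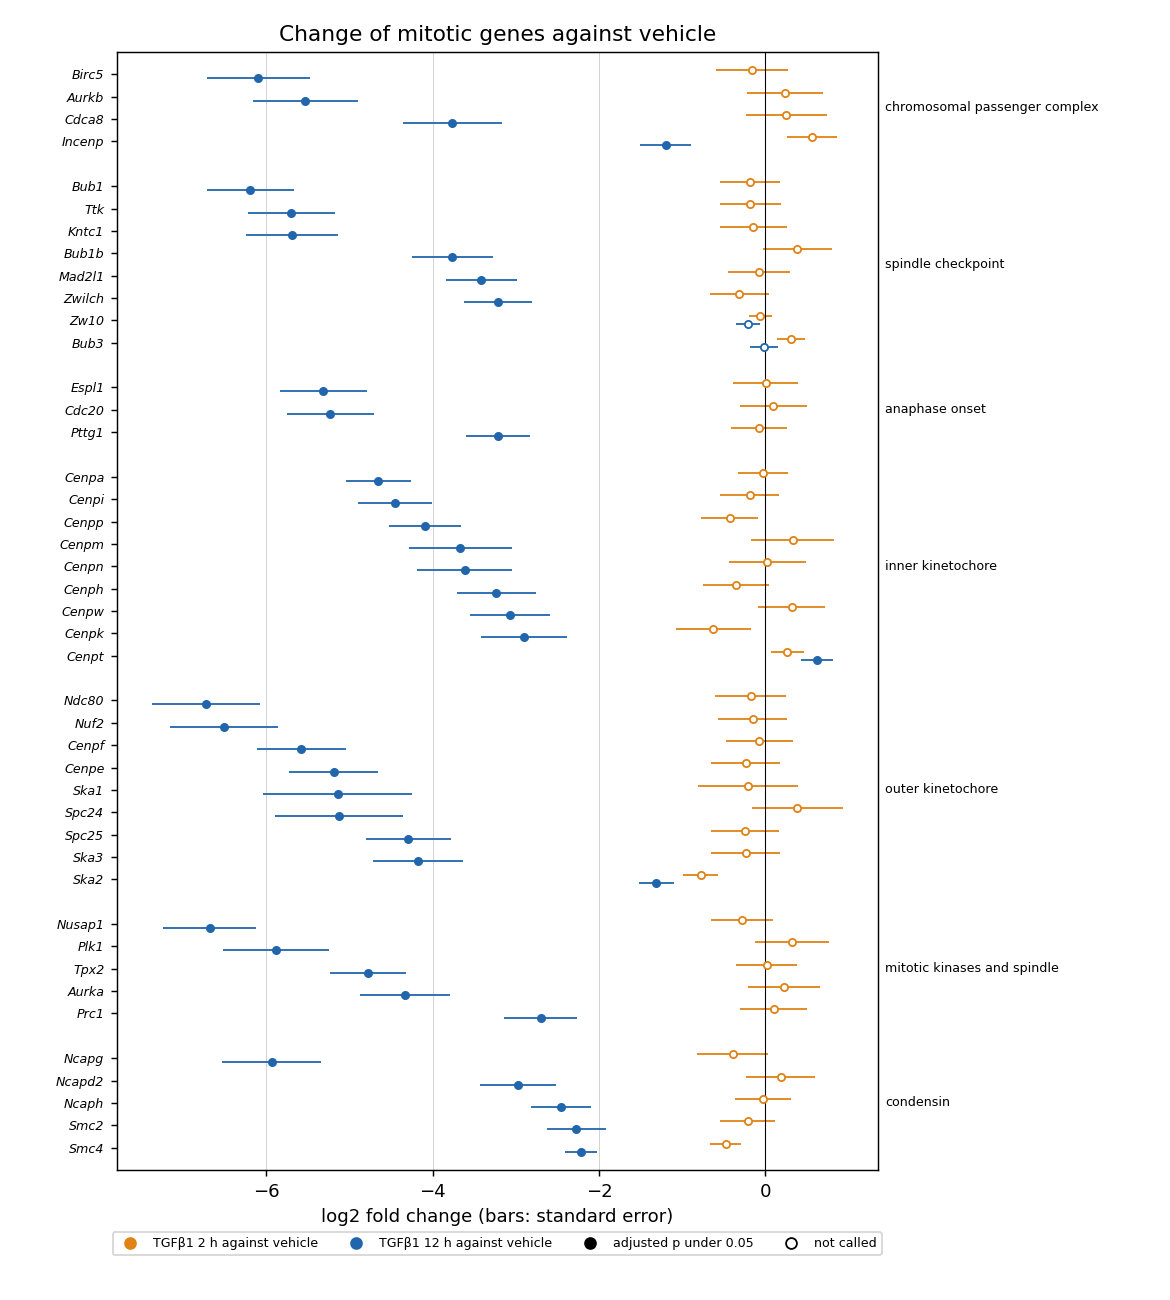
log2FC of each member against vehicle at 2 h and at 12 h of TGFβ, with bars of 1 SE from the edgeR fit, filled points for an adjusted p under 0.05 and open points otherwise. The 2 h points sit around 0 with a median of -0.08, and the 12 h points have a median of -4.17.

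Because the members fell together, the sequence before and around their start sites was examined. RefSeq windows from 250 bases before to 50 bases after a transcription start (build GRCm38.p6, which differs from the mm9 build of the gene positions given elsewhere) were at hand for 36 of the 43 members, in 40 windows. Incenp, Smc4, Spc24, Zwilch, Aurkb, Tpx2 and Ska1 had none. Letter matches on both strands were sought for CCAAT, the box bound by the factor NF-Y, for TTTGAA, a form of the cell cycle genes homology region (CHR) through which MuvB complexes act, and for E2F-type letters, which were TTGGCGC for the first form, TTCCCGC for the second, TTGCCGC for the third and TTCGCGC for the fourth. Of the 83 matches in member windows, 8 overlapped a match of another motif.

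Shown here are the windows of the 4 members with the deepest falls that held both CCAAT and TTTGAA, followed by Cenpt and Zw10, which did not fall and have a single window each. Bub3, which also did not fall, held both motifs and is not shown because it has more than a single window. The 5 members with deeper falls did not hold both, as Ndc80 had TTTGAA alone, Bub1 CCAAT alone, and Nusap1, Nuf2 and Birc5 no match to any of the motifs. They are written 5′ to 3′ in the direction of the gene, with the start site after the first 250 bases. Capitals mark letters that match any of the motifs on either strand.
Ncapg, chr5:45669675-45669974, plus strand: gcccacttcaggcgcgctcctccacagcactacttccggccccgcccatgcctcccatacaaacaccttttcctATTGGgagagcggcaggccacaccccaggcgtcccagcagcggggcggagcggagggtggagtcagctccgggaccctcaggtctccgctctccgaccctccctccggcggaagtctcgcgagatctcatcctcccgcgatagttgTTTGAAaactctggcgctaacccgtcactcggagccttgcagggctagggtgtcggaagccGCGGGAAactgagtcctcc
Plk1, chr7:122159185-122159484, plus strand: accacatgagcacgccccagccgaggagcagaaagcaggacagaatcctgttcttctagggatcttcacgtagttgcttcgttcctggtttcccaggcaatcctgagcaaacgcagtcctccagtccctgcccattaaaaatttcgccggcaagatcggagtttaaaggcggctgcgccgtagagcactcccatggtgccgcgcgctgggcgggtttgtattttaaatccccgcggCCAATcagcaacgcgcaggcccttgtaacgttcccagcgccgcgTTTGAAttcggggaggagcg
Ttk, chr9:83834439-83834738, plus strand: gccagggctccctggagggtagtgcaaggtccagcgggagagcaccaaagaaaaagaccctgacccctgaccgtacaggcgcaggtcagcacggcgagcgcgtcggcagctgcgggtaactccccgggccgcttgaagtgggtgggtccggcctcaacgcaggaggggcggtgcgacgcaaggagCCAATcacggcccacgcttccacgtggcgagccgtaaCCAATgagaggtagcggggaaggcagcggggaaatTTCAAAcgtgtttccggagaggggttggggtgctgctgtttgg
Kntc1, chr5:123749476-123749775, plus strand: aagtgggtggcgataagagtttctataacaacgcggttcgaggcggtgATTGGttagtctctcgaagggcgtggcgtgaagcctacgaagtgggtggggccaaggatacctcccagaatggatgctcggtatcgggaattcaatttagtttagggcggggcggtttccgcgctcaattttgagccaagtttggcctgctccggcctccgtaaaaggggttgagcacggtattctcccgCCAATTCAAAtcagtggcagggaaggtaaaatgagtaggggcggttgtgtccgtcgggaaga
Cenpt, chr8:105851959-105852258, minus strand: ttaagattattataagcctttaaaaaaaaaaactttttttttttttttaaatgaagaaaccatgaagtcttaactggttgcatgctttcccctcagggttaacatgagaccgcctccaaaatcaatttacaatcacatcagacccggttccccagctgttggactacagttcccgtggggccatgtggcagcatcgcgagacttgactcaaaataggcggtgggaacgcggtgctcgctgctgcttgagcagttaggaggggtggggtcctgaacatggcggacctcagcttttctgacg
Zw10, chr9:49055331-49055630, plus strand: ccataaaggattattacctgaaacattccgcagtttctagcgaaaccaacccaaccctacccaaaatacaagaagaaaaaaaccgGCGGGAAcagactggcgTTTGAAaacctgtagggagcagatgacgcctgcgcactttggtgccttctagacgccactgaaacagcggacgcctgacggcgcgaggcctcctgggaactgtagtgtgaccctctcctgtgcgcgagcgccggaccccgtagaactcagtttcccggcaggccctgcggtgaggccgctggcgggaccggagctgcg

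TTTGAA or its reverse complement was present in 21 of the 36 members with a window (58.33%), against 20.23% of all genes with a window and 13.83% of the tested ones. CCAAT was present in 25 of 36 (69.44%), against 41.06% of all genes with a window. A window with both was found for 18 members (50%), against 7.974% of all genes with a window. The E2F-type forms were in 9 members (25%), against 10.86% of all genes and 20.35% of tested genes. Of the 24 TTTGAA matches in the member windows, 20 began within 50 bases of the start, which is 83.33% beside 25.26% of the matches in the windows of all genes. Windows of the same gene can overlap and share a match.

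Among members that fell at 12 h, 24 of 33 with a window held CCAAT, 19 TTTGAA and 17 both. Of the 3 that did not fall, 1 held CCAAT, 2 held TTTGAA and 1, Bub3, held both in the same window. Over all 1866 tested genes with a window that were lower at 12 h, 18.11% held TTTGAA and 8.467% both. Other mitosis genes outside the set held TTTGAA in 20 of 45 (44.44%), both motifs in 33.33% and an E2F-type form in 40%, and regulators of mitotic transcription held TTTGAA in 41.18%. CCAAT was in 62.22% of these other mitosis genes, 58.82% of the regulators and 60% of S-phase genes, near the share in the members. S-phase genes held TTTGAA in 5 of 30 and an E2F-type form in 18 of 30. These are letter matches only, and binding at them was not measured.

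**Figure D3:**
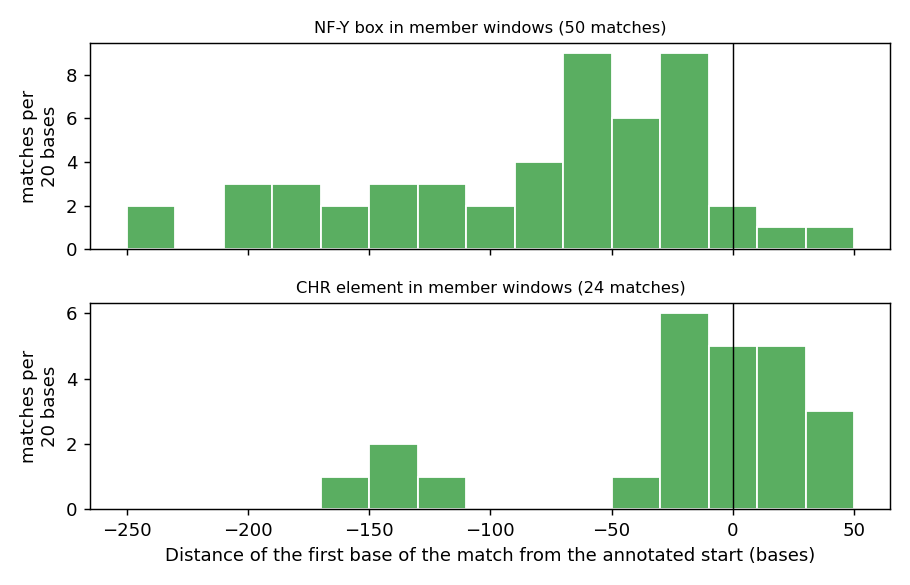
Position of NF-Y box and CHR element matches in the member windows, as the number of matches in each 20 bases against the distance from the annotated transcription start in bases. Of the 24 CHR element matches, 20 begin within 50 bases of the start, and the 50 NF-Y box matches spread further before it.

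The chromosomal passenger complex, which corrects faulty attachments and localizes to centromeres, was measured through all 4 of its subunits, and all 4 fell at 12 h (median log2FC -4.64). Aurkb, its kinase, was at 18.2 and 41.6 CPM in vehicle, 23.3 and 46.9 CPM at 2 h, and 0.479 and 0.822 CPM at 12 h. The 12 h libraries were far below the other 4, and the fall was 46.1-fold (log2FC -5.53, SE 0.635, edgeR adjusted p = 0.00076). Birc5, or survivin, which helps to place the complex, went from 28.7 and 69.4 CPM in vehicle and 32.2 and 55.1 CPM at 2 h to 0.523 and 0.925 CPM at 12 h, a 68.2-fold fall (log2FC -6.09, SE 0.619). Without vehicle replicate 2 the falls were 28.1-fold for Aurkb and 39.9-fold for Birc5. Cdca8, or borealin, had the widest gap between the 12 h libraries of any member on the log2 scale, with 1.96 and 0.771 CPM beside 11.8 and 26.1 CPM in vehicle (log2FC -3.76, SE 0.59).

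Incenp, the scaffold that binds and activates the kinase, fell less than its partners. Its levels were 46.6 and 79.2 CPM in vehicle, 71.8 and 113.9 CPM at 2 h and 25.5 and 29.3 CPM at 12 h. Both 12 h libraries were below the rest, with a 2.3-fold fall against vehicle (log2FC -1.20, SE 0.306, edgeR adjusted p = 0.0191). The call was lost with fewer libraries. The edgeR adjusted p was 0.119 without 12 h replicate 1 (log2FC -1.12) and 0.0838 without 12 h replicate 2 (log2FC -1.32), with the fold about as large, and 0.0889 without vehicle replicate 2, where the log2FC was -0.77. At 2 h its log2FC was 0.56 (SE 0.298, edgeR adjusted p = 0.265), and with the replicate number as a block it was 0.57 (SE 0.134, edgeR adjusted p = 0.0122).

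Of the 8 spindle assembly checkpoint genes, 6 fell and 2 were not called (median log2FC -3.59). Bub1, a kinase that recruits checkpoint proteins to the kinetochore, was at 31.8 and 62.7 CPM in vehicle, 30.9 and 52.0 CPM at 2 h, and 0.523 and 0.771 CPM at 12 h. It fell 73.1-fold (log2FC -6.19, SE 0.521, edgeR adjusted p = 0.000234). The kinase Ttk, known as Mps1, which starts checkpoint signaling, was at 22.5 and 44.5 CPM in vehicle, 21.8 and 37.2 CPM at 2 h and 0.523 and 0.771 CPM at 12 h (log2FC -5.70, SE 0.518). Kntc1, the Rod subunit of the complex that brings dynein to kinetochores, fell in like manner, from 35.1 and 70.6 CPM to 0.872 and 1.18 CPM (log2FC -5.69, SE 0.556).

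The other 3 checkpoint members that fell kept more RNA at 12 h. Bub1b, which encodes BubR1 of the complex that inhibits Cdc20, kept 8.50 and 8.27 CPM of 75.7 and 152.0 CPM (log2FC -3.76, SE 0.482). Mad2l1, another inhibitor of Cdc20, kept 4.27 and 3.80 CPM of 28.2 and 58.1 CPM (log2FC -3.41, SE 0.429). Zwilch, the third subunit of the Rod complex, kept 2.79 and 2.67 CPM of 16.6 and 34.1 CPM (log2FC -3.21, SE 0.408).

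Bub3 and Zw10 stood apart from the complexes they belong to. Bub3, which carries Bub1 and BubR1 to kinetochores, was at 106.3 and 125.1 CPM in vehicle, 119.9 and 165.5 CPM at 2 h and 113.5 and 115.8 CPM at 12 h. The vehicle libraries overlapped both other groups, while the 12 h libraries lay below those of 2 h. Its log2FC was -0.01 at 12 h (SE 0.169, edgeR adjusted p = 0.958) and 0.30 at 2 h (SE 0.169, edgeR adjusted p = 0.287). Zw10, the partner of Rod and Zwilch that also acts in membrane traffic, was at 34.7 and 39.0 CPM in vehicle, 31.7 and 38.9 CPM at 2 h and 32.4 and 31.4 CPM at 12 h (log2FC -0.21, SE 0.139, edgeR adjusted p = 0.27). Both 12 h libraries of Zw10 were below both vehicle libraries, by an amount the test did not call.

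All 3 genes of anaphase onset fell (median log2FC -5.23). Cdc20, the activator of the anaphase-promoting complex that the checkpoint holds back, was at 59.3 and 117.7 CPM in vehicle, 61.4 and 127.7 CPM at 2 h and 2.40 and 2.31 CPM at 12 h, a 37.4-fold fall (SE of the log2FC 0.527, edgeR adjusted p = 0.00045). Espl1, or separase, the protease that cleaves cohesin, went from 32.2 and 60.9 CPM to 0.828 and 1.54 CPM (log2FC -5.31, SE 0.523). Pttg1, or securin, which restrains separase, was left at 4.10 and 3.90 CPM from 26.0 and 48.2 CPM (log2FC -3.21, SE 0.384).

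In the inner kinetochore, 8 of the 9 genes fell and 1 rose (median log2FC -3.61). Cenpa, the histone H3 variant that marks centromeric chromatin, was at 28.0 and 46.4 CPM in vehicle, 28.4 and 44.4 CPM at 2 h and 1.22 and 1.75 CPM at 12 h, a 25.2-fold fall (log2FC -4.65, SE 0.388, edgeR adjusted p = 0.000227). The other 7 that fell encode subunits of the constitutive centromere-associated network, which links the Cenpa nucleosome to the outer kinetochore. Cenpi fell most among them (log2FC -4.45, SE 0.448), followed by Cenpp (-4.09), Cenpm (-3.66), Cenpn (-3.61), Cenph (-3.23), Cenpw (-3.07) and Cenpk (log2FC -2.90, SE 0.518). In all 7 genes both 12 h libraries lay below the other 4.

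Cenpt, the subunit that binds DNA next to the Cenpa nucleosome and recruits the Ndc80 complex, was the member that rose. It was at 17.5 and 22.7 CPM in vehicle, 20.6 and 27.7 CPM at 2 h and 31.7 and 30.2 CPM at 12 h. Both 12 h libraries were above the other 4, with a log2FC of 0.62 against vehicle (SE 0.194, edgeR adjusted p = 0.0392) and 0.36 against 2 h (SE 0.192, edgeR adjusted p = 0.193). Its partner Cenpw, with which it forms a histone-fold pair, fell at the same time from 4.95 and 8.10 CPM in vehicle to 0.959 and 0.565 CPM. The call of Cenpt was lost with total counts in place of TMM (log2FC 0.49, edgeR adjusted p = 0.0985), and without vehicle replicate 1 (log2FC 0.45, edgeR adjusted p = 0.192), 12 h replicate 1 (0.57, 0.171) or 12 h replicate 2 (0.65, 0.129).

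All 9 outer kinetochore genes fell (median log2FC -5.14), and the largest log2FC of the 43 members was among them. Ndc80 (Entrez 67052, chr17:71845440-71876197 in mm9, minus strand), the microtubule-binding core of its complex, was at 20.4 and 46.1 CPM in vehicle, 21.0 and 37.7 CPM at 2 h and 0.218 and 0.411 CPM at 12 h. The fall was 106-fold (log2FC -6.72, SE 0.652, edgeR adjusted p = 0.000384). It was 65.1-fold without vehicle replicate 2 and 149.5-fold without 12 h replicate 2, and it rests on only 5 and 8 counts at 12 h. Nuf2, the dimer partner of Ndc80, went from 14.4 and 29.8 CPM to 0.174 and 0.308 CPM, or 4 and 6 counts (log2FC -6.51, SE 0.645). Spc24 and Spc25, which anchor that dimer to the kinetochore, had log2FC values of -5.13 (SE 0.77) and -4.29 (SE 0.508).

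Cenpe, a kinesin that brings chromosomes to the middle of the spindle, and Cenpf, a large protein of the kinetochore corona, both fell. Cenpe was at 62.6 and 140.3 CPM in vehicle, 60.0 and 111.8 CPM at 2 h and 2.44 and 3.13 CPM at 12 h (log2FC -5.19, SE 0.534). Cenpf was at 67.9 and 145.5 CPM, 70.8 and 132.1 CPM, and 1.92 and 2.57 CPM in the same order (log2FC -5.58, SE 0.535). In both genes the libraries of vehicle and 2 h overlapped and those at 12 h were far below.

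The Ska complex, which keeps kinetochores attached to depolymerizing microtubules, did not fall evenly. Ska1 had the lowest level per kilobase of all members at 12 h, with 3 counts in each library (0.131 and 0.154 CPM) beside 2.83 and 7.65 CPM in vehicle. The ratio of vehicle to 12 h was 36.3, with a 95% interval of 16.4 to 100.5 that covers counting error only. Ska3 went from 4.83 and 11.6 CPM to 0.436 and 0.462 CPM (log2FC -4.17, SE 0.543).

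Ska2 fell less and was the member with the lowest adjusted p at 2 h. It was at 32.2 and 36.6 CPM in vehicle, 16.2 and 23.8 CPM at 2 h and 15.0 and 12.7 CPM at 12 h. The 3 groups did not overlap, and the vehicle libraries were the highest. At 12 h it fell 2.48-fold against vehicle (log2FC -1.31, SE 0.211, edgeR adjusted p = 0.00302). The log2FC at 2 h was -0.78 (SE 0.207, edgeR adjusted p = 0.0511), and -0.79 with the replicate block (SE 0.174, edgeR adjusted p = 0.00907). Between 2 h and 12 h it was -0.53 (SE 0.21, edgeR adjusted p = 0.095), and -0.51 with the block (edgeR adjusted p = 0.0413).

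The 5 mitotic kinase and spindle genes all fell (median log2FC -4.77). Nusap1 (Entrez 108907, chr2:119444034-119476980 in mm9, plus strand), a microtubule-bundling protein, was at 42.8 and 80.1 CPM in vehicle, 36.5 and 64.9 CPM at 2 h and 0.392 and 0.822 CPM at 12 h. The fall was 102-fold (log2FC -6.68, SE 0.556, edgeR adjusted p = 0.000226). It was 71.4-fold without vehicle replicate 2 and 155.5-fold without 12 h replicate 2. Plk1, a kinase of mitotic entry, spindle and kinetochore, was at 25.1 and 59.2 CPM, 35.0 and 69.9 CPM, and 0.654 and 0.771 CPM (log2FC -5.88, SE 0.635). Aurka, the centrosomal Aurora kinase, and Tpx2, which activates it on the spindle, had log2FC values of -4.33 (SE 0.539) and -4.77 (SE 0.456).

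Prc1, which crosslinks microtubules of the central spindle, fell least of these 5. It was at 76.0 and 157.6 CPM in vehicle, 83.9 and 166.3 CPM at 2 h and 18.2 and 17.7 CPM at 12 h, a 6.5-fold fall (log2FC -2.70, SE 0.438, edgeR adjusted p = 0.00316) that was 4.23-fold without vehicle replicate 2. The 12 h libraries were nearly equal and below the other 4.

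The 5 condensin genes all fell, with the smallest median of the 7 roles (log2FC -2.46). Smc2 and Smc4, the ATPase pair shared by condensin I and II, had log2FC values of -2.27 (SE 0.356) and -2.22 (SE 0.193, edgeR adjusted p = 0.000266). Smc4 was at 156.8 and 222.6 CPM in vehicle, 136.3 and 136.0 CPM at 2 h and 45.0 and 36.6 CPM at 12 h. Its 2 h libraries were both below the vehicle libraries, with a log2FC of -0.48 (SE 0.184, edgeR adjusted p = 0.139).

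The subunits particular to condensin I spread widely. Ncapg was at 32.04 and 81.7 CPM in vehicle, 33.9 and 52.8 CPM at 2 h and 0.741 and 1.13 CPM at 12 h, a 61.1-fold fall (log2FC -5.93, SE 0.597, edgeR adjusted p = 0.000448) that was 34.4-fold without vehicle replicate 2. Ncapd2 (log2FC -2.98, SE 0.458) and Ncaph (-2.46, SE 0.361) of the same complex fell less and were left at 10.6 and 11.4 CPM and at 7.98 and 7.86 CPM. Among condensin II subunits, which were not members, Ncapg2 had a log2FC of -3.47, Ncapd3 of -1.07, and Ncaph2 of -0.29, with an edgeR adjusted p of 0.136 for the last.

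Levels can be set against each other only per kilobase of exon. In vehicle they ran from 1.96 CPM per kb for Ska1 to 56.3 CPM per kb for Bub3, with a median of 10.8, and Cdc20 (47.4), Smc4 (37.7), Bub1b (26.6) and Tpx2 (23.6) followed Bub3. In that order, each of the 42 neighbouring pairs had overlapping libraries. The gap between replicates widens this overlap, and within a library 16 of the 42 pairs kept the same order in both replicates, such as Smc4 above Bub1b and Bub1b above Tpx2. At 12 h the median was 0.445 CPM per kb. Bub3 was still the highest at 55.8 CPM per kb, now followed by Cenpt (17.5), Zw10 (11.2), Incenp (8.49) and Smc4 (8.10). Here 31 of the 42 neighbouring pairs overlapped, and 20 of the 42 kept the same order in both replicates.

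After 2 h of TGFβ, a comparison that shares the vehicle libraries with the one at 12 h, no member passed the test. By edgeR's quasi-likelihood test, 0 of 43 had an adjusted p under 0.05, beside 9.91% of the tested genes higher and 5.25% lower. An unadjusted p under 0.05 was found for 2 members, Ska2 and Smc4. DESeq2 and limma-voom each called 1 member, Ska2, lower. With the replicate number as a block the count was 2, with Ska2 lower and Incenp higher, beside 12.7% of the tested genes lower and 16.4% higher in that fit. The median log2FC was -0.08 over the members and -0.01 over all tested genes. Both 2 h libraries lay below both vehicle libraries in 2 members and above them in 0, with 27.5% and 28.3% of tested genes in these classes. The SE of the members at 2 h had a median of 0.403 in the main fit, which ignores replicate numbers, so that a missed threshold does not show equal levels. With the replicate block the SE at 2 h was smaller, from 0.103 for Nusap1 to 0.318 for Cdca8.

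The libraries of a group differed in this set far more than across all genes. In vehicle, replicate 2 was higher than replicate 1 in 43 of 43 members, by a median of 0.99 on the log2 scale (1.98-fold), whereas the median over all tested genes was 0.00. At 2 h it was higher in 42 of 43 members, by 0.84 (1.79-fold). At 12 h it was higher in 23 of 43, with a median of 0.05. S-phase genes differed between replicates in the same way, by 0.65 in vehicle, 0.64 at 2 h and -0.04 at 12 h.

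**Figure D4:**
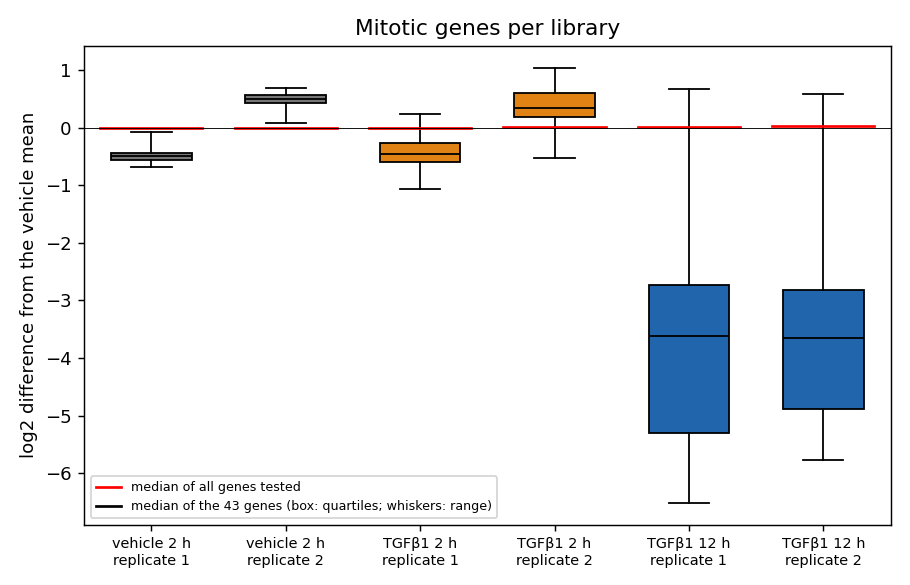
Deviation of each library from the mean of the vehicle libraries, on the log2 scale, for the 43 members, with boxes for the quartiles, whiskers for the range, black bars for the member medians and red bars for the medians over all tested genes. Member medians are -0.49 and 0.49 in vehicle, -0.45 and 0.35 at 2 h, and -3.62 and -3.66 at 12 h.

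The fall at 12 h was larger than this gap between replicates. Taken within a replicate number, the median log2 difference between 12 h and vehicle was -3.01 for replicate 1 and -4.29 for replicate 2, with 41 members lower in both and 1 higher in both, beside 41.4% and 44.1% of all tested genes. The medians over all tested genes were 0.02 and 0.01. For 2 h against vehicle these medians were 0.03 and -0.14, with 18 members lower in both and 14 higher in both, beside 40.5% and 38.4% of all tested genes. Without vehicle replicate 2, the median log2FC at 12 h was -3.54, and without vehicle replicate 1 it was -4.67.

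The 12 h libraries were also compared with those of 2 h TGFβ, a comparison that shares the 12 h libraries with the one against vehicle and so is not independent of it. Here 39 members fell and 0 rose, beside 18.9% of tested genes lower and 15.2% higher, with a median log2FC of -4.04, and Bub3, Zw10, Cenpt and Ska2 were not called. All 39 were below a log2FC of -1, as were 9.87% of the tested genes. The 39 again hold the 24 members that passed the filter only through the vehicle and 2 h libraries. Both 12 h libraries lay below both 2 h libraries in 41 members and above them in 1, beside 34.2% and 34.8% of tested genes. With the replicate block 40 members fell, Ska2 among them, beside 25.2% of tested genes lower in that fit.

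Other genes of mitosis, from lists that were set beside the members, moved less evenly. Members and lists were both chosen with earlier results of these data known, so this contrast is not independent of the data. Of 49 tested genes of mitosis outside the set, 35 fell and 2 rose between vehicle and 12 h (median log2FC -2.17). Haus2 and Numa1, both of spindle assembly, were the 2 that rose. Another 12 were not called, the kinetochore genes Mis12 (log2FC 0.03) and Cenpc1 (-0.11) among them. Of 18 genes of the anaphase-promoting complex and its partners, 3 fell (16.7%) and 4 rose (22.2%), close to the 21.5% and 21.8% of all tested genes (median -0.13). Ube2c (log2FC -5.76), its ubiquitin-conjugating enzyme, and Fbxo5 (-2.68), its inhibitor, fell deeply, and Anapc13 (-0.47) was the one core subunit of the list that fell. The subunits Anapc2, Anapc10, Cdc16 and Cdc26 were the 4 that rose.

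Of 21 regulators of mitotic transcription, 10 fell and 3 rose at 12 h (median log2FC -0.32). Foxm1 (log2FC -2.76) and Mybl2 (-2.53), which activate genes of G2 and mitosis, fell. Nfya (1.07), a subunit of NF-Y, rose, whereas the subunit Nfyc (-0.43) fell and Nfyb (0.22) was not called. Among the E2F factors, E2f3 (0.84) and E2f4 (0.66) rose, and E2f1 (-0.98), E2f2 (-4.69), E2f7 (-4.44) and E2f8 (-4.89) fell. Of 38 S-phase genes, 21 fell and 0 rose (median -1.04). At 2 h, 1 of these 49 mitosis genes, Haus8, rose, Nfya rose among the regulators, and E2f2 (log2FC -2.39) and E2f5 (-0.75) fell, with 0 calls among the S-phase genes and the anaphase-promoting complex.

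**Figure D5:**
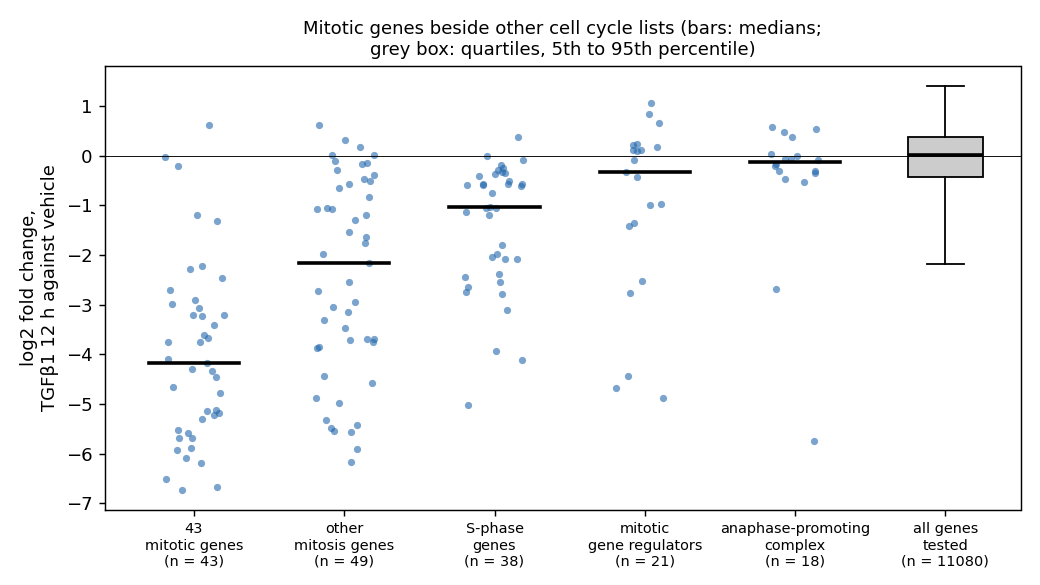
log2FC between vehicle and 12 h TGFβ for each tested gene of the 43 members and the 4 other lists, as points with bars for the medians, beside a box of the quartiles with whiskers from the 5th to the 95th percentile over all tested genes. Medians are -4.17 for the members, -2.17 for other mitosis genes, -0.13 for the anaphase-promoting complex, -0.32 for regulators and -1.04 for S-phase genes.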

How the data were processed

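RNA was sequenced from 6 NMuMG libraries. Per the labels and the study's methods, the authors trimmed the reads, aligned them to mm9 with Subread, kept unique reads, removed duplicates with SAMtools 0.1.19, counted reads on exons of known genes with featureCounts by strand and deposited raw counts per gene. Removal of duplicates can compress the highest counts. Every table column belonged to a sample.

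From these counts, genes that reached 2 CPM in 2 or more libraries went into edgeR 4.0.16 (R 4.3.3, TMM, glmQLFit and glmQLFTest on all 3 groups, Benjamini-Hochberg over 11080 genes, adjusted p under 0.05). limma 3.58.1 (voom) and DESeq2 1.42.0 were alternatives. In data simulated for 12 h against vehicle on 11080 genes, 93% were recovered of the 200 genes given a log2 change of 1.5, and 5 unchanged genes were called. The simulation held no gap between replicates like that of the members, so it does not give the recovery for this set. The members, the comparison lists and the naming rule were chosen with earlier results of these data known. By that rule every member may be named, and in each role full values go to the largest log2FC at 12 h and to members whose call differs from most of their role. Other members given full values were picked after their values were seen, and genes outside the set are examples from the lists.

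The main test ignored replicate numbers. As an alternative they entered as a block, because same-numbered libraries deviated together over all genes (correlations 0.708 for vehicle and 2 h, 0.263 for vehicle and 12 h and 0.392 for 2 h and 12 h, and over the 43 members 0.610, 0.230 and 0.0249 in that order). The labels do not state this pairing. Replicates differed beyond counting noise, with a chi-square per degree of freedom of 16.8 or more in each group, so none was a repeat deposit. Gene positions and exon lengths came from the mm9 annotation, and intervals cover counting error only.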

Additional observations from a re-analysis of the deposited data

Results flagged for a closer look

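The RNA level of 39 of the 43 members differed between the 2 h and 12 h TGFβ groups at an adjusted p under 0.05. The test was the edgeR contrast of the 12 h against the 2 h libraries. Lower values by this test were called in 18.9% of all tested genes. Each value in what follows is the log2 fold change of 12 h against 2 h TGFβ. No vehicle was taken at 12 h, so these values are not differences in the effect of TGFβ1. The longer time without serum and insulin at 12 h cannot be told apart from the treatment.

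In the chromosomal passenger complex the differences were -5.76 for Aurkb, -5.93 for Birc5, -4.01 for Cdca8 and -1.76 for Incenp. Among checkpoint genes they were -6.01 for Bub1, -5.54 for Kntc1, -5.52 for Ttk, -4.14 for Bub1b, -3.34 for Mad2l1 and -2.90 for Zwilch. The kinases and Rod thus moved furthest in that role. In anaphase onset, Cdc20 and Espl1 had close values of -5.32 and -5.31, and Pttg1 had -3.13.

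The inner kinetochore gave -4.62 for Cenpa, -4.26 for Cenpi, -3.99 for Cenpm, -3.66 for Cenpp, -3.64 for Cenpn, -3.38 for Cenpw, -2.88 for Cenph and -2.27 for Cenpk. The outer kinetochore gave -6.55 for Ndc80, -6.35 for Nuf2, -5.51 for Spc24, -4.04 for Spc25, -5.51 for Cenpf, -4.95 for Cenpe, -4.93 for Ska1 and -3.93 for Ska3. With 3 counts in each 12 h library, the fitted value of Ska1 depends on the prior count, and its ratio of 2 h to 12 h was 31.97 with a 95% counting interval of 14.4 to 88.3.

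Spindle genes gave -6.40 for Nusap1, -6.20 for Plk1, -4.78 for Tpx2, -4.55 for Aurka and -2.80 for Prc1. Condensin genes gave -5.54 for Ncapg, -3.16 for Ncapd2, -2.43 for Ncaph, -2.06 for Smc2 and -1.74 for Smc4. Smc4 and Incenp thus had the smallest differences of the 39.

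Of these calls, 6 were lost with a single 12 h library, which was then assumed to vary like the other groups, while the log2FC stayed of similar size. Without 12 h replicate 1, the edgeR adjusted p was 0.0658 for Incenp (log2FC -1.67), 0.0558 for Cenph (-2.72), 0.0706 for Cenpk (-2.72), 0.0504 for Cenpm (-3.59) and 0.072 for Ska1 (-4.82). Without 12 h replicate 2 it was 0.0507 for Incenp (-1.87), 0.114 for Cenpk (-1.97), 0.0632 for Ska1 (-5.05) and 0.0616 for Smc2 (-1.88). Without 2 h replicate 1, Bub3 (log2FC -0.53, adjusted p 0.0212) and Ska2 (-0.78, 0.0158) were called lower as well.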

How the results depend on the processing

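At 2 h the count of members called was 0, but 1 with DESeq2, limma-voom, DESeq2 size factors in edgeR, total counts or no filter (Ska2, lower, in each), 2 with the replicate block, and 0 to 1 when a replicate was left out. The 1 was Bub3 without 2 h replicate 1 (log2FC 0.50, edgeR adjusted p = 0.0404) and Ska2 without 2 h replicate 2 (-1.08, 0.0111). The member median then ran from -0.54 to 0.46, and 37 of 43 members changed sign at 2 h in at least one of these fits, which leave the gap between replicates unbalanced, against 5 members in the other alternatives. At 12 h against vehicle, 39 to 41 members were called under leave-one-out and 34 of 36 where at least 10 counts were asked in every library, and the block gave 41. At 12 h against 2 h, these were 34 to 41 members, 32 of 36 members and, with the block, 40. The block changed no other member's call than those given for Ska2 and Incenp. Bub3 at 12 h against vehicle ran from -0.13 to 0.11 under leave-one-out, turning sign without vehicle replicate 2, and Zw10 at 12 h against 2 h ran from -0.29 to 0.0069, turning without 2 h replicate 2, neither being called. The cause was not tested. Total counts in place of TMM moved the median of all genes by -0.13 at 12 h and by -0.11 at 2 h. With 2 libraries a group and members near 0 counts at 12 h, the SE of a log2FC reached 0.891 (Ska1).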
